A study of Mus musculus with 6 samples.

Results

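The immediate early response genes were followed in sorted mammary luminal progenitor cells as a module of 38 genes named by symbol. The list was chosen with earlier results of these data known. All 38 symbols were found among the 18537 known-gene clusters of the deposited table, each in 1 row. Immediate early genes are the first to be transcribed when a cell receives a stimulus, because the factors that switch them on, such as SRF with its ELK partners and CREB, are already present and are activated by phosphorylation. Growth factors acting through MAP kinases, cell stress, and the dissociation of a tissue into single cells are all known to induce them. Their transcripts are short-lived, and their products either carry the response on, as the AP-1, EGR and NR4A transcription factors do, or end it, as the MAP kinase phosphatases and mRNA decay factors do.

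Luminal progenitors, which give rise to the milk-producing alveolar cells, were taken from adult nulliparous females born to Robo1+/- parents. There were 3 libraries from Robo1+/+ mice (replicates gh03, gh09 and gh15) and 3 from Robo1-/- littermates (replicates gh06, gh12 and gh18), each made from the pooled cells of 2 animals. The mutant allele, Robo1tm1Matl, is carried in the germline, so the loss of ROBO1, a receptor for SLIT ligands, affected the whole animal and not only the sorted cells. The glands were broken up mechanically, depleted of lineage-positive cells and sorted as Lin-CD24loCD29+CD61+ cells, and poly(A)+ RNA was sequenced, so every library had passed through tissue dissociation and a cell sort. No library of undissociated tissue was analysed here.

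The values below are normalized read counts, that is, the reads of a gene scaled by a size factor for its library, and 1 read was worth between 0.784 and 1.46 of these units. The libraries held between 9727191 and 17433868 reads. For each gene the values are given in the order gh03, gh09, gh15 for the wild type (Robo1+/+) and gh06, gh12, gh18 for the mutant (Robo1-/-). Robo1 itself read 289, 574 and 541 in wild type against 130, 214 and 177 in the mutant, so the targeted gene was lower in every Robo1-/- library, with some reads still counted. All 12 luminal progenitor markers were present in every library, but they did not move together. In gh18 Krt8, Krt19 and Cd14 were at their lowest, at 11182, 2705 and 1605. Kit at 5038 and Elf5 at 3759 in gh18 lay within the wild-type range. The marker sums were 134391 to 172038 in wild type and 86289 to 189405 in the mutant. The lowest of these sums was that of replicate gh18, a library that stood apart from the rest in its base composition: over the 12453 tested genes with a known transcript GC content, its deviation from each gene's mean fell as GC rose (Spearman's rho -0.81), whereas rho lay between 0.17 and 0.61 in the other 5 libraries. These are correlations across the genes of a library, which are not independent of each other. Results that rest on gh18 are therefore also given without it or after a GC correction, in which each library's trend of deviation on GC content was subtracted. In bulk RNA, fewer cells of a type and less RNA per cell cannot be told apart.

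Most of the module was expressed at a high level in the sorted cells of both genotypes. Compared as RPKM, a level scaled to transcript length and library depth that was computed here from the recovered reads, 21 of the 38 members lay above the 95th percentile of the 15918 clusters with a known transcript length, and 5 lay above the 99th percentile, in the mean of the Robo1+/+ libraries. Atf3, a stress-induced partner of the AP-1 factors, had the highest RPKM in Robo1+/+ cells, 674 ± 171 (SD, n = 3). The AP-1 subunit Fos followed at 618 ± 151 (SD, n = 3), which differed from Atf3 by less than either SD. The step down to Klf6 was wider than both SDs. Klf6 at 383 ± 26.0 RPKM, Fosb at 363 ± 73.0, Zfp36 at 348 ± 41.2 and Ier3 at 332 ± 16.4 came next, and neighbours among these 4 lay within their SDs of each other. At the low end stood Nr4a3 at 4.84 ± 1.17 RPKM, followed upwards by Egr2, Nr4a2 and, at 12.4 ± 6.62, Dusp2. Members of a single family were therefore far apart in level: Nr4a1 read 139 ± 22.9 RPKM against 4.84 ± 1.17 for Nr4a3. In all, the 38 genes took between 1.24% and 1.49% of the reads of a Robo1+/+ library and between 1.07% and 1.99% of those of a Robo1-/- library.

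Many members were high or low in the same libraries, and the widest separation was between 2 libraries of the same genotype. For each member, the deviation of a library is its log2(value + 1) minus the mean of that gene over the 6 libraries. The median deviation of the 38 members was 0.43 in Robo1-/- replicate gh06 and -0.51 in Robo1-/- replicate gh18. In the other libraries it was 0.05 in gh03, 0.06 in gh09, -0.19 in gh15 and 0.03 in gh12. The 3 Robo1+/+ libraries therefore lay between the highest and the lowest Robo1-/- library. Over all 13692 tested genes the library medians stayed between -0.01 and 0.05.

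**Figure D1:**
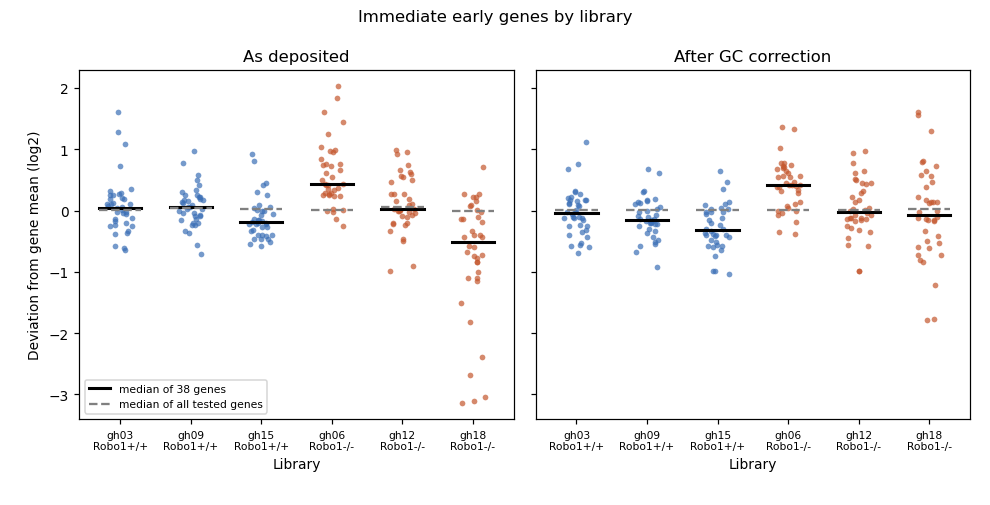
Median deviation of the 38 members (log2 units, vertical axis) in each of the 6 libraries (horizontal axis), as a black line, with 1 point per member and the median of all tested genes as a dashed line, before and after the GC correction. Replicate gh06 is highest in both, at 0.43 and 0.42, and gh18 is lowest only before the correction, at -0.51 against -0.07 after it.

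In gh06, 34 of the 38 members lay above their own mean over the libraries, against 51.6% of all tested genes. Its value was the highest of the 6 in 19 members, whereas gh06 was highest in 12.5% of all tested genes. In gh18, 22 members had their lowest value, but this library was also lowest in 38.3% of all tested genes. The members are richer in GC than most genes, with a median transcript GC content of 53.7% against 50.4%, and across the 38 of them rho between GC content and the deviation was -0.71 in gh18 and 0.61 in gh06.

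Once GC was corrected, gh06 still stood highest while gh18 did not stand lowest. The median deviation of the members was 0.42 in gh06 and -0.07 in gh18. The other libraries gave -0.04 in gh03, -0.15 in gh09, -0.32 in gh15 and -0.02 in gh12, so the lowest library was now Robo1+/+ replicate gh15. Replicate gh06 was highest in 16 members, against 12.3% of all genes with a GC value, and gh15 was lowest in 14 members, against 10.7%. Between the highest and the lowest library the median of the members spanned 0.94 log2 units before and 0.74 after the correction. The correction moved some GC-rich members far up in gh18, Jund from -0.83 to 1.56 and Klf2 from -0.60 to 1.60. After it gh18 was the highest library of 10 members, against 29.2% of all genes with a GC value. It was the lowest of 9 members, against 26.5%. What set gh06 apart from the other libraries was not tested.

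**Figure D2:**
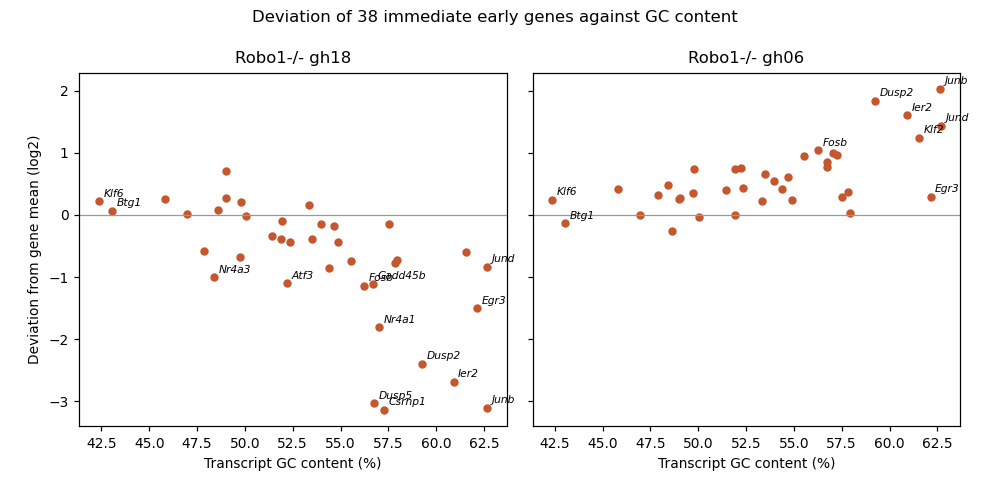
Deviation of each member (log2 units, vertical axis) against the GC content of its transcript (percent, horizontal axis), in gh18 (left) and gh06 (right), with 1 point per member. In gh18 the GC-rich members lie lowest (rho -0.71), and in gh06 they lie highest (rho 0.61).

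Among individual members the spread over the 6 libraries ranged from narrow to very wide. The median range, highest minus lowest library, was 1.38 log2 units, against 1.17 over all tested genes. In these uncorrected values 25 of the 38 members (65.8%) spanned more than 1 log2 unit, close to the 60.8% of all tested genes. With the GC correction the median range was 1.21 against 0.82. Then 25 of the 38 members spanned more than 1 log2 unit, against 39.1% of all genes with a GC value.

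**Figure D3:**
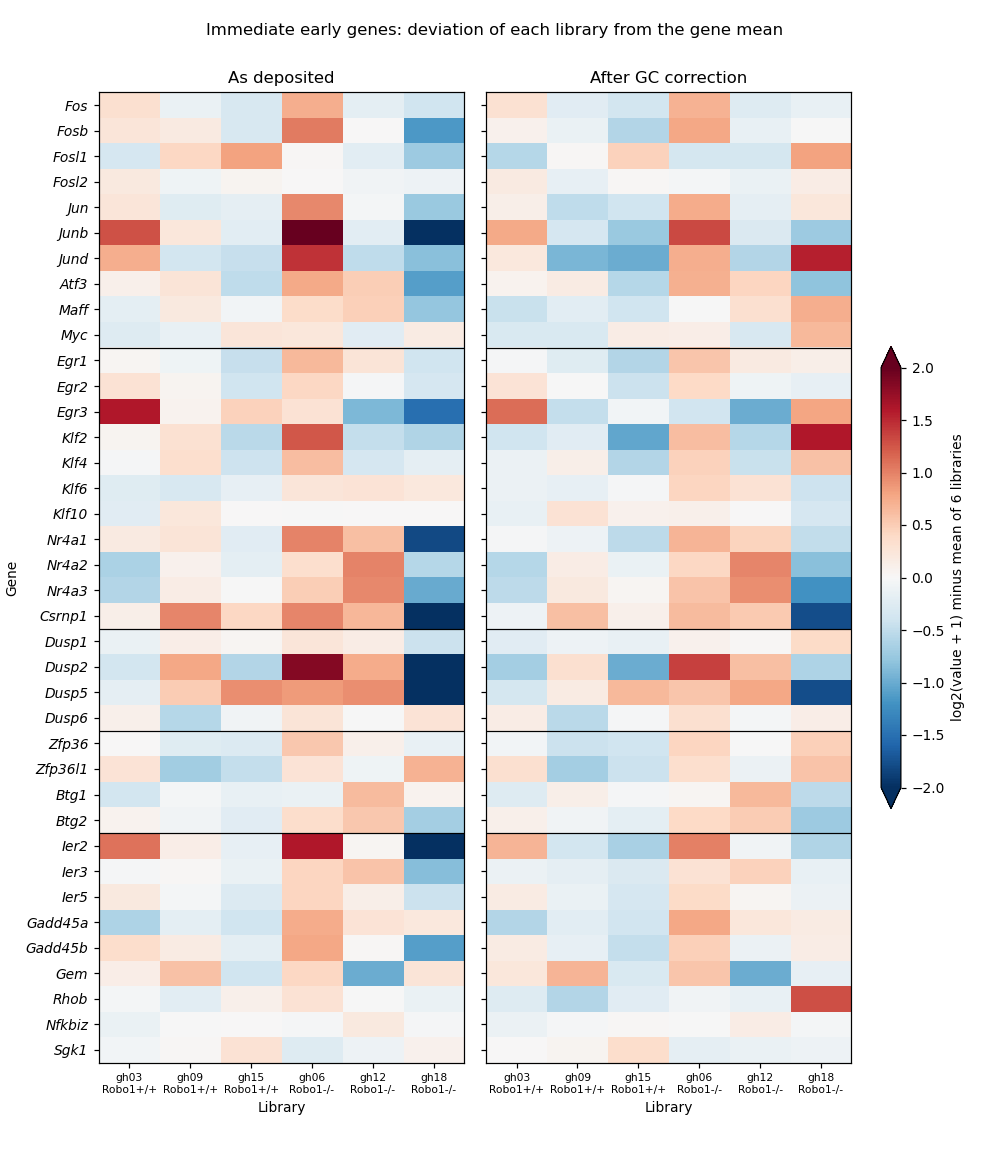
Deviation of each of the 38 members (rows, grouped by role) in each of the 6 libraries (columns), as a colour scale in log2 units (darkest beyond 2 units in either direction), before and after the GC correction. The gh06 column is the highest in 19 members before and in 16 after it, and gh18 holds the deepest negative values, in Csrnp1 (-3.14) and Junb (-3.11).

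The AP-1 subunits and their partners, basic leucine zipper factors that pair to bind DNA, held the member with the highest RPKM, Atf3, and the one with the widest uncorrected range, Junb. Atf3 read 19569, 21759 and 12755 in wild type against 30668, 25699 and 8495 in the mutant. Fosb, a FOS-type subunit, read 21032, 19959 and 14142 in wild type against 36394, 17737 and 8017 in the mutant. For both genes the highest and the lowest of the 6 values were the Robo1-/- replicates gh06 and gh18, so the genotypes overlapped.

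Junb (kgCluster25154, chr8:87500811-87502617 on NCBI37, minus strand), a JUN-type subunit that can oppose JUN at growth genes, had the widest range of all members. It read 1826, 876 and 646 in wild type against 3082, 648 and 86.1 in the mutant, a 35.8-fold span. Its Robo1-/- value was thus the highest of the 6 in gh06 and the lowest in gh18, where 59 reads were behind it, and gh12 lay beside gh15. With the GC trend removed, the range of Junb fell from 5.15 to 2.07 log2 units and gh06 and gh03 were its highest libraries. Fosl2, another FOS-type subunit, was the steadiest member of the module, with 8210, 6740 and 7460 in wild type against 7154, 6775 and 6668 in the mutant, a range of 0.30 log2 units. Myc, grouped here as an early growth regulator whose MYC protein also pairs through a leucine zipper, read 1396, 1505 and 1978 in wild type against 1958, 1418 and 1860 in the mutant, a range of 0.50. Steady and variable members were thus measured in the same libraries.

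The other AP-1 members ranged from 614 to 1773 for Fosl1, from 4090 to 13356 for Jun, from 572 to 2771 for Jund, from 13535 to 29589 for Fos and from 1631 to 3857 for Maff. Of these 5, Fos, Jun and Jund had their highest value in gh06, while Maff was highest in gh12 and Fosl1 in gh15. The AP-1 group as a whole had a median deviation of 0.74 in gh06 and -0.76 in gh18, with the other 4 libraries between -0.20 and 0.22. The GC correction left 0.70 in gh06 and moved gh18 to 0.18.

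None of the 10 members of the AP-1 group, in which Myc is counted here, passed the test between genotypes at an unadjusted p of 0.05. The test was limma, which compared log2(value + 1). Differences between genotypes are given throughout as log2 fold changes, mutant minus wild type, each with its SE from limma. For the AP-1 members they lay between -0.86 (Junb) and 0.12 (Jun), with 6 of 10 above 0. Both ends moved with gh18: the value of Junb was 0.48 without that library and 0.21 after the GC correction, and that of Jun 0.52 and 0.53. Fosl1, at -0.60 ± 0.35 (SE), stood at 0.062 after the GC correction. For Junb the SE was 1.19 and the adjusted p by limma 0.861, and the 95% interval ran from -3.67 to 1.95.

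The EGR zinc finger factors, the KLF factors, the NR4A orphan nuclear receptors and Csrnp1 made up the other 11 transcription factors. Klf6 (kgCluster5780, chr13:5860735-5869639 on NCBI37, plus strand), a zinc finger factor induced by growth factors and injury, read 21704, 20545 and 23099 in wild type against 30434, 31100 and 29946 in the mutant. All 3 Robo1-/- values lay above all 3 Robo1+/+ values. The genotypes differed by 0.49 ± 0.19 (SE, unadjusted p = 0.0358 and adjusted p = 0.858 by limma), and the exact two-sided permutation test gave p = 0.1, the smallest that 3 against 3 libraries allow. Klf6 has a low GC content among the members, 42.4%, and after the GC correction its genotypes overlapped and the mutant minus wild-type difference was 0.20 ± 0.25 (SE).

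Egr3 (kgCluster7829, chr14:70477252-70479964, plus strand) was the member with the largest negative difference. It read 475, 162 and 213 in wild type against 190, 82.4 and 54.0 in the mutant. The genotypes overlapped, since gh06 lay above gh09, and gh03 stood far above the rest. In gh18 the value rested on 37 reads. The genotypes differed by -1.41 ± 0.58 (SE, unadjusted p = 0.0459 and adjusted p = 0.858 by limma). Egr3 is GC-rich, at 62.1%, and after the correction the mutant minus wild-type difference was -0.39 ± 0.57 (SE). Without gh18 it was -1.02.

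Egr1, the most abundant EGR factor, read 12070, 11091 and 8519 in wild type against 18540, 14151 and 8974 in the mutant. The replicates gh06 and gh12 were above all Robo1+/+ libraries and gh18 was not, and the mutant minus wild-type difference was 0.35 ± 0.31 (SE, adjusted p = 0.858 by limma). After the GC correction the 3 Robo1-/- values of Egr1 lay above the 3 Robo1+/+ values and the genotypes differed by 0.57 ± 0.21 (SE). Klf10, a TGF-beta-induced factor, read 3137, 4296 and 3690 in wild type against 3678, 3704 and 3722 in the mutant, with every mutant value inside the wild-type range.

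Csrnp1, a nuclear protein with a cysteine- and serine-rich region, read 2246, 4093 and 2777 in wild type against 4081, 3299 and 235 in the mutant. The single low library was gh18, with 161 reads. Without gh18 the range of Csrnp1 was 0.87 log2 units in place of 4.12. Its corrected deviation in gh18 was still -1.77. The difference between genotypes, below 0 with a SE of 1.03 in all 6 libraries, was 0.32 without gh18 and -0.41 after the GC correction.

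In the 3 NR4A receptors gh06 and gh12 were the 2 highest libraries, also after the GC correction, which was not so in Fos, Junb and Ier2. This was not particular to the NR4A receptors, since it also held for Atf3, Egr1, Klf6, Btg2, Ier3 and Gadd45a. As uncorrected deviations, Nr4a1 stood at 0.99 in gh06, 0.60 in gh12 and -1.81 in gh18. Nr4a2 stood at 0.33, 0.99 and -0.58 in these libraries, and Nr4a3 at 0.49, 0.96 and -1.01. By contrast gh12 stood at -0.20 for Fos, -0.21 for Junb and 0.03 for Ier2. This grouping was made after the values were seen and was not tested. The remaining factors ranged from 191 to 337 for Egr2, from 250 to 901 for Klf2, and from 3246 to 6632 for Klf4, each with its highest value in gh06. Of the 11 members of the role, 8 had a log2 fold change above 0, and Klf6 and Egr3 were the 2 past an unadjusted p of 0.05 by limma.

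**Figure D4:**
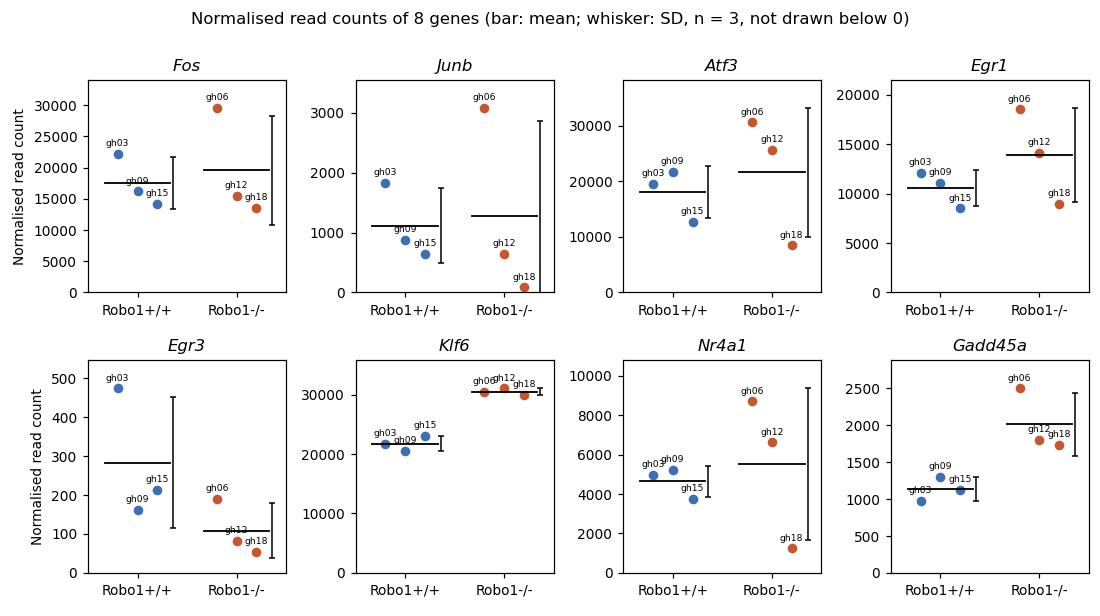
Normalized read counts (vertical axis, from 0) of 8 members in the 3 Robo1+/+ and 3 Robo1-/- libraries, 1 point per library, with the mean as a bar and the SD (n = 3) as a whisker that is not drawn below 0. The genotypes are separate in Klf6 and Gadd45a, and the Robo1-/- points of Junb run from 86.1 to 3082, past every Robo1+/+ point on both sides.

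The 4 MAP kinase phosphatases are feedback enzymes that remove the phosphates by which MAP kinases are active. Dusp6, which acts on ERK in the cytoplasm, was the most abundant as a count, with 5332, 3354 and 4738 in wild type against 5944, 4962 and 5996 in the mutant. Only gh12 fell within the Robo1+/+ range, and the genotypes differed by 0.35 ± 0.24 (SE, adjusted p = 0.858 by limma). Dusp1, a nuclear phosphatase, read 2771, 3311 and 3100 in wild type against 3598, 3365 and 2235 in the mutant. Its gh06 and gh12 values were above all 3 Robo1+/+ values and its gh18 value below them. After the GC correction all 3 were above, with a difference of 0.32 ± 0.14 (SE).

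Dusp2 and Dusp5, which act on MAP kinases in the nucleus, varied far more. Dusp2 read 198, 441 and 172 in wild type against 926, 431 and 48.2 in the mutant. Dusp5 read 579, 926 and 1241 in wild type against 1174, 1242 and 78.8 in the mutant. In both genes gh18 was the lowest library, with 33 and 54 reads, and the genotypes overlapped. The genotypes differed by 0.12 ± 1.03 (SE) for Dusp2 and -0.84 ± 1.03 (SE) for Dusp5, without gh18 these values were 1.35 and 0.47, and after the GC correction 0.91 and -0.30. None of the 4 phosphatases was past an unadjusted p of 0.05 in the 6 libraries by limma.

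All 4 members that act in mRNA decay or against proliferation had log2 fold changes above 0, from 0.15 (Btg2) to 0.60 (Zfp36l1), and none was past an unadjusted p of 0.05 by limma. Zfp36, the AU-rich element binding protein tristetraprolin, which speeds the decay of early transcripts, read 9466, 7946 and 7790 in wild type against 13712, 10038 and 8508 in the mutant. Only gh18 fell within the Robo1+/+ range. The genotypes differed by 0.33 ± 0.24 (SE) and, after the GC correction, 0.59 ± 0.19 (SE) with no overlap. Btg1, an antiproliferative partner of the mRNA deadenylases, read 4929, 6234 and 5725 in wild type against 5802, 9835 and 6696 in the mutant. Its highest library was gh12, and gh06 overlapped the Robo1+/+ values. Zfp36l1, a paralogue of Zfp36, ranged from 3013 to 7976 with its highest value in gh18, and Btg2 ranged from 3657 to 8534 with its lowest value in gh18.

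Gadd45a (kgCluster20769, chr6:66985090-66987451, minus strand), a DNA damage and stress response gene that binds PCNA and cell cycle proteins, was the member with the smallest p. It read 975, 1302 and 1129 in wild type against 2504, 1800 and 1733 in the mutant. All 3 Robo1-/- values lay above all 3 Robo1+/+ values, and the means were 1135 ± 164 and 2013 ± 427 (SD, n = 3). The genotypes differed by 0.82 ± 0.23 (SE, unadjusted p = 0.0102 and adjusted p = 0.858 by limma), with an exact permutation p = 0.1. It was 0.78 after the GC correction, 0.91 without gh18 and 0.65 without gh06. Its paralogue Gadd45b ranged from 150 to 554 with overlapping genotypes and a difference of -0.21 ± 0.48 (SE), which was 0.29 without gh18 and 0.33 after the GC correction.

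Of the other response genes, Ier2, a nuclear early response protein, followed the same libraries as Junb. It read 1566, 814 and 658 in wild type against 2250, 756 and 114 in the mutant. For both Ier2 and Junb, gh06 and gh03 were the 2 highest libraries before and after the GC correction. The genotypes differed in Ier2 by -0.70 ± 1.01 (SE), by 0.47 without gh18 and by 0.23 after the correction. Ier3, which is induced by stress and NF-kB and modulates cell survival, read 5122, 5318 and 4757 in wild type against 7030, 7760 and 2910 in the mutant, so gh06 and gh12 lay above all Robo1+/+ values and gh18 below them.

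Sgk1, a kinase gene induced by glucocorticoids and serum, went the other way from most of the module. It read 6724, 7049 and 8531 in wild type against 5848, 6496 and 7378 in the mutant, and gh06, where 19 members were highest, was its lowest library. The genotypes differed by -0.18 ± 0.20 (SE, adjusted p = 0.858 by limma). With GC corrected, the 3 Robo1-/- values of Sgk1 lay below the 3 Robo1+/+ values, with a difference of -0.27 ± 0.15 (SE).

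Rhob, a small GTPase gene, read 2702, 2405 and 2959 in wild type against 3374, 2766 and 2514 in the mutant. Nfkbiz, a nuclear I-kappa-B protein, read 4401, 4811 and 4869 in wild type against 4742, 5514 and 4769 in the mutant. Both were among the 5 steadiest members, with ranges of 0.49 and 0.33 log2 units. The correction widened Rhob to 1.88 log2 units, moving its deviation in gh18 from -0.14 to 1.30, and narrowed Nfkbiz to 0.25. Ier5 ranged from 1900 to 3462 and Gem, a GTPase gene of the RGK family, from 353 to 1053, with overlapping genotypes.

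Over the whole module, the difference between the genotypes was small against the spread between libraries. With limma, 0 of the 38 members had an adjusted p under 0.05, in a comparison in which 0% of the 13692 tested genes did, and the adjusted p of the members ran from 0.858 to 0.989. At an unadjusted p under 0.05 there were 3 members. The 2 that were higher in Robo1-/- were Klf6 and Gadd45a, against 0.767% of all tested genes. The 1 that was lower was Egr3, against 0.92% of all tested genes. On the recovered reads, DESeq2 called 0 members at an adjusted p under 0.05, against 0.0054% of genes, and 3 at an unadjusted p under 0.05, against 1.81%. The quasi-likelihood test of edgeR called 0 members, against 0%, and 1, against 1.61%.

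The genotypes did not overlap in 2 members that were higher in Robo1-/- (Klf6 and Gadd45a), close to the 4.83% of all tested genes that were so, and in 0 that were lower, against 4.58%. After the GC correction there were 6 members without overlap that were higher (Maff, Egr1, Dusp1, Zfp36, Gadd45a and Rhob), against 3.44% of genes, and 1 that was lower (Sgk1), against 3.17%. Of these, Gadd45a alone was separate both before and after the correction. The median log2 fold change of the 38 members was 0.08, with 25 above 0, beside a median of 0.00 and 50.2% above 0 over all tested genes. After the correction it was 0.25 with 31 above 0, beside 0.00 and 50.5%.

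**Figure D5:**
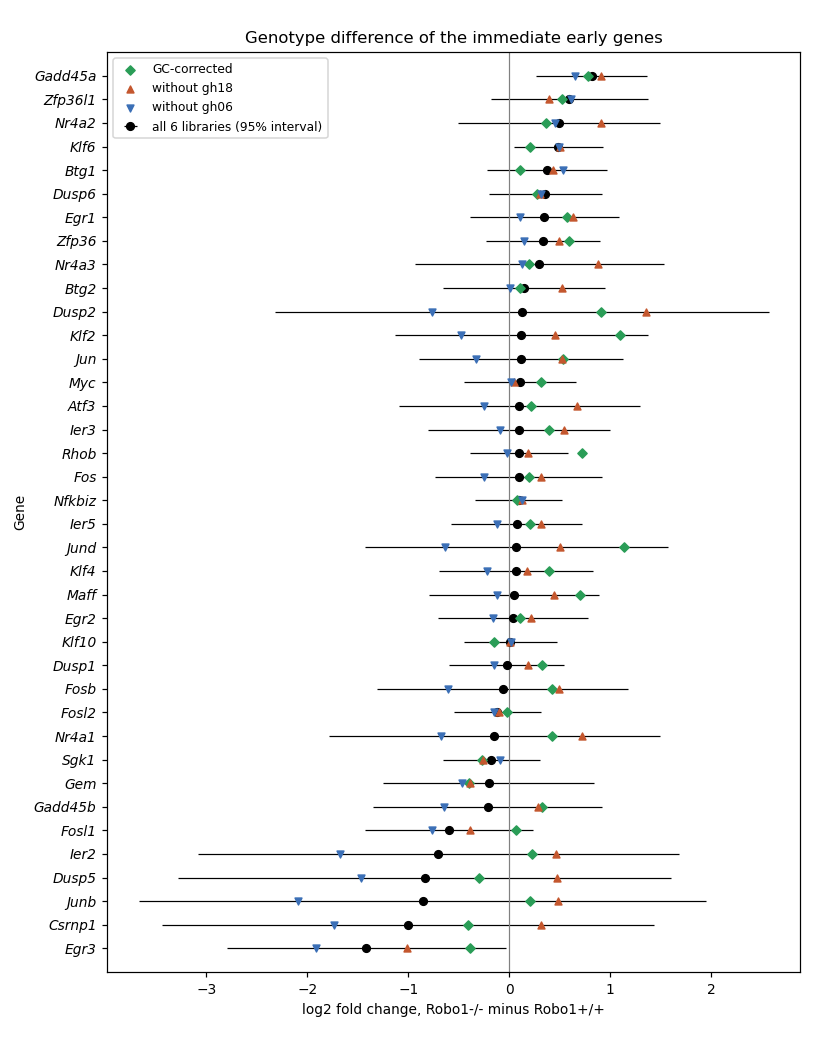
Log2 fold change of each member, Robo1-/- against Robo1+/+ (horizontal axis), with its 95% interval from limma over 3 against 3 libraries, and the values with the GC correction, without gh18 and without gh06 as further points. The intervals leave out 0 in Klf6, Gadd45a and Egr3, and they are widest in Junb, Dusp2, Dusp5, Csrnp1 and Ier2.

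In the uncorrected values, the sign of the module's median turned on which libraries were in the comparison. It was below 0 without Robo1-/- replicate gh06 and also without Robo1+/+ replicate gh15. Among the Robo1+/+ libraries, 23 of the 38 members were above 0 without gh03, 27 without gh09 and 17 without gh15. Without gh18, leaving 2 Robo1-/- libraries, 33 of the 38 members had a log2 fold change above 0 and the median was 0.44. Over all tested genes these were 50.7% and 0.00. In that fit 12 members were higher at an unadjusted p under 0.05 by limma, against 1.91% of all tested genes, and 0 were lower, against 2.29%. These 12 were Atf3, Maff, Egr1, Klf6, Nr4a1, Nr4a2, Nr4a3, Dusp2, Zfp36, Btg2, Ier3 and Gadd45a, and their lowest adjusted p was 0.938. They share the 2 remaining Robo1-/- libraries, of which gh06 was high in most members, so they are not independent of each other. Without gh06, 13 of the 38 members were above 0 and the median was -0.15, beside 50.8% and 0.01 over all tested genes. Then 1 member was higher at an unadjusted p under 0.05 by limma (Gadd45a), against 1.55%, and 1 was lower (Egr3), against 4.89%. In both fits limma pooled the spread over the genotypes. In GC-corrected values most members stayed above 0 whichever library was left out. They numbered 24 of the 38 without gh06, 29 without gh12 and 32 without gh18. Without gh03, gh09 or gh15 they numbered 31, 31 and 27. With all 6 libraries they numbered 31, beside 50.5% of all genes with a GC value.

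The genes around the module, from lists made with earlier results of these data known, did not share its library pattern in full. Of 28 tested other early response genes, 3 were higher at an unadjusted p under 0.05 by limma and 0 lower, against 0.767% and 0.92% of all tested genes, with a median log2 fold change of 0.15. Of them 5 did not overlap between genotypes, all higher, against 4.83%. The 3 were Errfi1, Tob1 and Ptgs2, and the other 2 of the 5, named after their values were seen, were Ccnl1 and Cxcl1. Ptgs2, the inducible cyclooxygenase of prostaglandin synthesis, read 242, 741 and 1407 in wild type against 1518, 2929 and 2268 in the mutant, a difference of 1.77 ± 0.62 (SE, adjusted p = 0.858 by limma). Errfi1, a feedback inhibitor of the EGF receptor, read 11974, 14679 and 15582 in wild type against 16365, 22235 and 25251 in the mutant, with a difference of 0.58 ± 0.24 (SE). Tob1, an antiproliferative relative of the BTG proteins, had a difference of 0.45 ± 0.19 (SE). In Errfi1 the highest library was gh18 and in Ptgs2 it was gh12, in contrast to the members that peaked in gh06.

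Upstream of the module, the 30 MAP kinase pathway and SRF cofactor genes had a median log2 fold change of 0.02. Of these, 0 were past an unadjusted p of 0.05 by limma, against 0.767% higher and 0.92% lower of all tested genes. Without overlap there was 1 gene higher (Atf1), against 4.83%, and 1 lower (Elk1), against 4.58%. The 14 feedback regulators of MAP kinase signalling held 1 (Errfi1), with a median of 0.06 and 4 without overlap, all higher (Errfi1, Spred1, Dusp4 and Spry4), against 0.767% of all tested genes higher by p and 4.83% by overlap. The 12 NF-kB feedback genes had a median of -0.72, with 3 genes lower without overlap (Nfkb2, Relb and Nfkbie) and 1 past an unadjusted p of 0.05, against 4.58% and 0.92% of all tested genes. That gene was Nfkb2, the p100 subunit, at 3123, 3358 and 4080 in wild type against 2682, 1714 and 823 in the mutant. Its difference of -1.17 ± 0.42 (SE) was -0.71 without gh18 and -0.38 after the GC correction, and the median of the list became -0.20.

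Heat shock genes, which answer protein-folding stress, were counted as a second sign of cell stress. Of 13, 0 passed an unadjusted p of 0.05 by limma, and their summed normalized counts were 163943, 127195 and 123266 in wild type against 136521, 114889 and 142874 in the mutant. The sum was carried by abundant genes such as Hsp90ab1 and Hspa8 and was highest in gh03. Hspa1a and Hspa1b, stress-inducible genes named after their values were seen, were highest in gh06, as many immediate early genes were. Hspa1a read 1583, 1025 and 651 in wild type against 2314, 486 and 530 in the mutant. Hspa1b read 2391, 1808 and 1124 against 3555, 973 and 1309. Both are GC-rich, at 59.2% and 58.1%. No other gene of the list was highest in gh06: Hsph1 peaked in gh03, Dnajb1 in gh09 and Hspb1 in gh15. The part of the heat shock genes in the members' pattern was not tested. In all the lists together, 0 genes had an adjusted p under 0.05 by limma.

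Markers of basal, stromal and blood cells were low beside those of the luminal progenitors, while those of hormone-sensing luminal cells were not, and their part in the members' pattern was not tested. The 10 basal markers summed to between 709 and 2192 in wild type and between 1008 and 1565 in the mutant, led by Oxtr and Acta2, with gh03 and gh06 the 2 highest. The 8 fibroblast markers summed to between 769 and 877 in wild type and between 355 and 1073 in the mutant, led by Dcn and Col3a1, with gh06 highest and gh12 lowest. The 8 endothelial symbols, of which Vwf gave most of the reads and Pecam1 came next, summed to between 618 and 2224 in wild type and between 172 and 1127 in the mutant. Within Robo1-/- the basal, fibroblast and endothelial sums were thus highest in gh06, as the immediate early genes were. Over all 6 libraries, however, the basal and endothelial sums were highest in gh03, at 2192 and 2224 against 1565 and 1127 in gh06. Cdh5, a defining endothelial marker, was at 0 in 4 of the 6 libraries.

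The 10 leukocyte symbols, led by Cd68 and Csf1r, summed to between 120 and 163 in wild type and between 99.2 and 124 in the mutant, and Ptprc, which encodes the CD45 used to deplete leukocytes, was at 0 in 4 of the 6. The 7 erythroid symbols, led by Hba-a2 and Alas2, summed to between 58.2 and 261 in wild type and between 60.5 and 251 in the mutant. The 10 markers of hormone-sensing luminal cells summed to between 47292 and 59843 in wild type and between 62200 and 74207 in the mutant, led by Prlr and Areg. That sum was highest in gh06, and its genotypes did not overlap. The sum was not corrected for GC, and in gh18 Prlr alone gave 37136 of its 64855. The genotypes overlapped in Prlr itself, whose difference of 0.49 was 0.13 after the GC correction. Among the markers, 2 were past an unadjusted p of 0.05 by limma, both higher, against 0.767% of all tested genes. They were Cd24a, which encodes a marker of the sort gate (0.67 ± 0.21 SE), and Pgr, the progesterone receptor (0.76 ± 0.31 SE). These were 1 of 12 luminal progenitor markers and 1 of 10 hormone-sensing markers. After the GC correction the differences were 0.40 for Cd24a and 1.23 for Pgr.

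The promoters of the members were read for the sites through which early genes are known to be switched on. RefSeq promoters of GRCm38.p6, from 250 bases before to 50 bases after a transcription start, were matched for 30 of the 38 members, with 44 promoters in all, since some genes have several starts that share sequence. The CArG box, which binds SRF, was found on either strand in 6 of the members' 44 promoters (13.6%), against 1.63% of 32851 promoters. These 6 promoters belong to 3 of the 30 genes (Dusp5, Egr2 and Zfp36). The full cyclic AMP response element TGACGTCA, which reads the same on both strands, was found in 6.82%, in 3 genes (Btg2, Dusp1 and Maff), against 1.79%. The site GCGNGGGCG, bound by EGR factors, was found on either strand in 25% of them, in 11 genes, against 5.55%, and the AP-1 site TGANTCA in 4.55%, in 2 genes (Csrnp1 and Zfp36l1), against 7.81%. These letters do not overlap one another in the promoters shown. A match is a description of the letters and not of a bound site. Sites outside this window, and the members without a matched promoter, were not read.

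Of these promoters, 6 are shown, each as the 300 bases written 5' to 3' on the strand of the gene, because they belong to members that lay highest in gh06 or gh12 or had the smallest p, and because they differ in the sites they hold. Capitals mark the CArG box, TGACGTCA or GCGNGGGCG on either strand. By exact match the sequences lie on NCBI37 at chr7:29164198-29164497 (minus strand) for Zfp36, chr17:26645368-26645667 (minus strand) for Dusp1, chr1:135975683-135975982 (minus strand) for Btg2, chr15:101097027-101097326 (plus strand) for Nr4a1, chr8:87502598-87502897 (minus strand) for Junb and chr6:66987352-66987651 (minus strand) for Gadd45a. Zfp36, with a CArG box and an EGR site, was highest in gh06. Dusp1, with a cyclic AMP response element, was also highest in gh06, and Btg2, with that element and an EGR site, was highest in gh12. Nr4a1 holds an EGR site on the opposite strand. None of the 4 motifs was found in the windows of Junb, the most variable member, and Gadd45a, the member with the smallest p.
Zfp36: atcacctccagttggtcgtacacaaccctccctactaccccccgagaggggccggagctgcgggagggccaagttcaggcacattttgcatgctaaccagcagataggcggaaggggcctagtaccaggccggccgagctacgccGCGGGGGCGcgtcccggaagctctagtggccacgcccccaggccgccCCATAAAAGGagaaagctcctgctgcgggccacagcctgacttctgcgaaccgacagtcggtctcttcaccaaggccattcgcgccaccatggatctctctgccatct
Dusp1: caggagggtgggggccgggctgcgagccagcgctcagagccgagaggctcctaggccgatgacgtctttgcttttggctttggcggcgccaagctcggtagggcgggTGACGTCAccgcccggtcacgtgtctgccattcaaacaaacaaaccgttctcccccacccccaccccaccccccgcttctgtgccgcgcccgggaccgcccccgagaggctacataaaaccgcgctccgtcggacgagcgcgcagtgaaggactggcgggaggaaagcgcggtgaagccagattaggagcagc
Btg2: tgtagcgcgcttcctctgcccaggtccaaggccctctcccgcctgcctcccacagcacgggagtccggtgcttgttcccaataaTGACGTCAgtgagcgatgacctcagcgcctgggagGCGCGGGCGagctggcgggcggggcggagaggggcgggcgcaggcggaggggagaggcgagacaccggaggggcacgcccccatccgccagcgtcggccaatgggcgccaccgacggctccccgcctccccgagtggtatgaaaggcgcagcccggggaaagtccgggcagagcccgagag
Nr4a1: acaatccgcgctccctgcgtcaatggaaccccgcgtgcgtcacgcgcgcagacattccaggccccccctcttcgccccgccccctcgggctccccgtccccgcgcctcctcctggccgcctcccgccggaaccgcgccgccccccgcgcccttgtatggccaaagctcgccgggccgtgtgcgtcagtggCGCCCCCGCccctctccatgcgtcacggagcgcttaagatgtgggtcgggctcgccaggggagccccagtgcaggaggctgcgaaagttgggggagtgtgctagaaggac
Junb: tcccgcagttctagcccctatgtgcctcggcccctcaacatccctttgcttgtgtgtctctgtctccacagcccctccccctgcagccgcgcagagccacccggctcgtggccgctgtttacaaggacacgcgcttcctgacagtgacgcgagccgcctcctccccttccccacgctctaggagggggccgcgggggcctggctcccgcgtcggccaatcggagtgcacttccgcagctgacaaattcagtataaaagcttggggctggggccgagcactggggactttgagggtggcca
Gadd45a: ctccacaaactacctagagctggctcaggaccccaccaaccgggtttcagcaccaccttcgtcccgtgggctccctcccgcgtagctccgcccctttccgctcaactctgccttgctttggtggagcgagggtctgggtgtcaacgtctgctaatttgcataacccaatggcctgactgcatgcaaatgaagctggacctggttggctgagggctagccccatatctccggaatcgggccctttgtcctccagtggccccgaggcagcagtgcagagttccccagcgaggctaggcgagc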

How the data were processed

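RNA-seq of sorted luminal progenitors was analysed in 6 libraries, 3 of each genotype as the labels give it, with 2 animals per library. The deposited values are a normalized signal per gene: the authors trimmed reads to 75 bases, took out those that bowtie2 placed on repeats, aligned what was left to NCBI37/mm9 by TopHat, and scaled the reads within genes with DESeq2, while the submitters' processing notes name Bowtie, TopHat, SAMtools and DESeq. The counting tool and its use of strand are not given in the sources used here, so overlapping and antisense genes and near-identical copies are uncertain. Dividing by the value of 1 read in each library gave whole reads for 100% of values, to a tolerance of 0.006 in value units. No per-sample columns were left unused. The precision of low values is limited by these reads, which cover counting error only, as no molecular identifiers were used and PCR copies count again.

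Values were tested as log2(value + 1) with limma (version 3.58.1, R 4.3.3), with a mean-variance trend in eBayes and Benjamini-Hochberg adjustment over 13692 genes that edgeR's filterByExpr (version 4.0.16) retained, with a two-sided exact permutation test per gene. The labels do not say that libraries came from separate litters or days, so p-values measure the spread between these libraries. The GC correction subtracted a lowess curve (span 0.3) of each library's deviations on transcript GC content, taken from GENCODE mouse release M1 by symbol. Alternatives were DESeq2 (version 1.42.0) and edgeR on recovered reads, TMM scaling, 2 other filters, pseudocounts of 0.5 and 5, the GC correction, and each library left out, with and without that correction. The fit was tested on simulated data. The members, their roles and all other lists were chosen with earlier results of these data known, and so no set test was run. All members could be named. Those described with all 6 values had genotypes that did not overlap, an unadjusted p under 0.05, one of the 5 widest or 5 narrowest ranges, or one of the 2 highest mean values of their role. From other lists, genes past an unadjusted p of 0.05 without overlap were named, and the 2 most abundant markers of each other cell type.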

Additional observations from a re-analysis of the deposited data

How the results depend on the processing

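With limma, DESeq2, edgeR, TMM scaling, the other filters, pseudocounts of 0.5 and 5, the GC correction and each library left out, 0 of the 38 members had an adjusted p under 0.05. The number past an unadjusted p of 0.05 was 3 (231 of 13692 genes), against 1 by edgeR (221 of 13692). It was 2 with at least 10 reads in every library (207 of 12160) and 4 with the GC correction (199 of 12453). With a library left out it was between 1 and 12. There were 12 without gh18, where 267 genes were higher and 321 lower of 14010, and 1 each without gh15 and without gh12. With both the GC correction and a library left out, it was 12 without gh18 (564 of 12689 genes), 9 without gh12 (185 of 12556) and 7 without gh03 (185 of 12669), against 4 with the correction alone (199 of 12453). The median log2 fold change, 0.08 in all 6 libraries, ran from -0.15 without gh06 to 0.44 without gh18. The span of the library medians, 0.94, ran from 0.27 (GC corrected, without gh06) to 0.99 (without gh03), and was 0.57 without gh06 and no correction. A direction was counted as reversed where the log2 fold change was larger than its SE and changed sign. This was so for Fosl1, at -0.60, which became 0.062 with the GC correction and ran from -0.91 to 0.31 with a library left out. With a library left out in GC-corrected values, 3 others reversed: Egr3 ran from -1.91 to 0.067, Nr4a2 from -0.027 to 0.90 and Btg1 from -0.20 to 0.53, and all 4 were reversed without gh12. Counting every change of sign, whatever its size, there were 5 members by DESeq2, 5 by edgeR, 8 with the GC correction, 12 without gh06, 8 each without gh15 and gh18, 7 without gh12, 4 each without gh03 and gh09, and 0 with TMM scaling, the other filters or the other pseudocounts. The causes were not tested. No paired analysis was possible because the labels give the groups no shared replicate numbers. Depth limits Junb, Egr3, Dusp2, Dusp5 and Ier2 in gh18, with 33 to 78 reads each.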
